A study of Bos taurus with 12 samples.

Results

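The day 0 endometrium of 3 cows is described here by the absolute level of each gene on 1 array per animal, 3 of the 12 arrays of the series. The animals, labelled fertile, had povidone-iodine (a disinfectant that frees iodine) placed in the uterus, and their endometrium was biopsied alternately from both horns on days 0, 2, 7 and 14. RNA from each biopsy went onto 1 one-colour Agilent bovine array. The labels do not say whether the day 0 biopsy came before the antiseptic, which horn it came from or which stage of the oestrous cycle the cow was in, and all 3 cows were treated. The day 0 arrays were those whose columns in the deposited value table carry the title d0. For each, a single scanner file gave the same values over 43622 probes (median absolute difference under 0.001 log2 units), and the next best file correlated with it at no more than 0.479. Only for cow 1 was that file the one linked to the same sample. The matched files of cows 2 and 3 are linked to day 2 of cow 2 and day 7 of cow 3, so the day of those arrays rests on the value table. The levels described are those of day 0, and the later days enter only where the differences between the cows on day 0 are set beside those in later biopsies of the same cows.

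The endometrium is the lining of the uterus. A surface epithelium with ciliated and secretory cells and tubular glands rests on a stroma of fibroblasts, vessels and immune cells, with the smooth muscle of the uterine wall beneath. Oestrogens and progesterone act on it through nuclear receptors, and its glands secrete proteins and growth factors that feed the early embryo.

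A level is the log2 processed intensity of a probe minus the log2 of that array's 75th percentile, so that 0 marks a probe brighter than 75% of probes. Where a gene had several probes, the brightest stood for it. That gave 15519 genes, of which 11989 (77.3%) passed the scanner software's call of being well above background on 3 of 3 arrays and 2596 (16.7%) on none. The 75th percentile lay between 991 and 1100 intensity units, 71.4% to 74.9% of probes were well above background per array, and no probe was saturated. The lowest level called well above background was −6.29, −6.77 and −6.56 in cows 1, 2 and 3. In the added spike RNAs a 10-fold step in amount gave a 7.51 to 7.76-fold step in signal, so levels compress true differences. A bulk biopsy cannot tell fewer cells of a type from less RNA per cell.

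Probes of 1 gene differed far more than the cows did, which limits what an order of genes can mean. Among 7006 genes with at least 2 probes well above background on all 3 arrays, the brightest and dimmest probe lay a median of 3.04 log2 units apart, against a median range over cows of 0.39 for the same genes. In 1755 of 9674 genes with 2 or more probes (18.1%), 1 probe was well above background on 3 arrays and another on none. A percentile below therefore orders probe signals and not amounts of transcript. IGF2, which encodes insulin-like growth factor 2, shows the spread well. Its 13 probes ran from a mean of 6.02 to −7.33, and 2 of them were well above background on no array. The last 30 bases (31 to 60) of its brightest probe and of a probe 3566 bases upstream are shown to let them be compared, with the polyadenylation hexamer AATAAA in capitals.
IGF2 brightest probe: tttatcgctcgcaatcccAATAAAgcattt
IGF2 upstream probe: ctggccctgctggagacttactgtgccacc
The first lies at chr29:51276488-51276547 of the Btau_3.1 build on the plus strand and read 6.04, 5.92 and 6.11 in cows 1, 2 and 3. The second, at chr29:51272922-51272981, read −1.31, −1.34 and −2.22. Both were well above background in every cow. The files give no exon or UTR limits for either.

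Probes with the hexamer were brighter across the whole array. AATAAA occurred in 4081 probes (9.36%), with a median level of −0.50, and its reverse complement TTTATT in 1508 probes (3.46%), with a median of −1.63. Probes without AATAAA had a median of −3.57. Within genes that have probes both with and without AATAAA, those with it were on average brighter in 1608 of 2087 genes (77.0%), by a median of 2.29. The same count for TTTATT was 559 of 861 genes (64.9%), with a median of 1.21. Probe GC content and level had a Spearman correlation of −0.167 over the 43622 probes, given as a description. The median level was −2.31 below 35% GC, −1.68 from 35% to 40% and −5.06 at 60% or more. The part of base composition in the hexamer result was not tested.

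**Figure D1:**
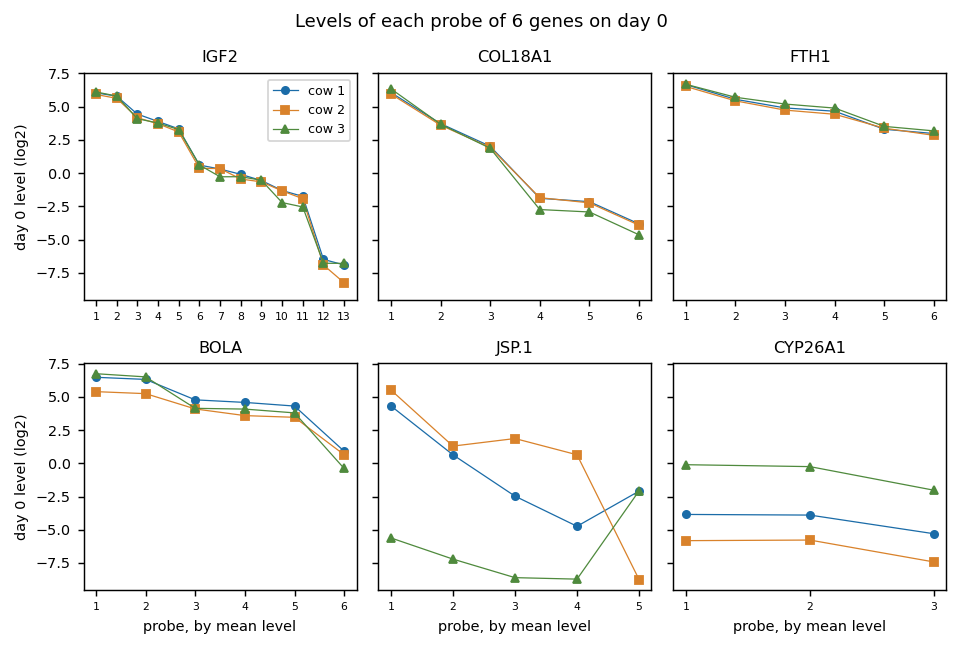
Day 0 level (log2, vertical axis) of every probe of 6 genes, ordered by mean level from left to right, with 1 line for each cow. The 13 probes of IGF2 fall from 6.02 to −7.33 with the cows close together, whereas the probes of JSP.1 and CYP26A1 set the cows apart.

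Ribosomal proteins and housekeeping genes filled the top of the order. Of the 100 brightest genes, 52 encode cytoplasmic ribosomal proteins and 5 lie in the mitochondrial genome, and these 100 genes held 15.3%, 14.3% and 16.03% of the summed signal of all genes in cows 1, 2 and 3. The 81 ribosomal genes had a median percentile of 99.6, where 100 marks the brightest gene and 50 the middle. RPS3 was the brightest of them. RPL10L, a copy known from testis, was well above background on none of the arrays. The mitochondrial genes had a median percentile of 96.6 over 12 members, from COX2, COX3, COX1 and ATP6 (subunits of cytochrome oxidase and ATP synthase) at the top to ND2 and ND6 at the low end, with a lowest percentile of 57.4. ND6 also varied most among the cows, by 1.36 log2 units.

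Outside those 2 groups the 25 brightest genes spanned levels from 6.72 to 5.85, and the next gene stood at 5.81. SLC25A6, the ADP/ATP carrier of the inner mitochondrial membrane, came first at 6.77, 6.61 and 6.77 in cows 1, 2 and 3. FTH1, the heavy chain of the iron store ferritin, read 6.66, 6.52 and 6.69. The cows lay within 0.17 of each other in both. When the median probe stood for a gene, SLC25A6 had a percentile of 93.1 and FTH1 of 99.5, in place of 99.99 for each. Of the 25 genes, 11 stayed among the brightest under that rule. TPT1, the elongation factors EEF1A1 and EEF2, the chaperone HSP90AB1, the actin-binding peptides TMSB4X and TMSB10, cyclophilin PPIA, actin ACTG1, myosin light chain MYL6 and histone H3-3A are also among the 25. The pseudogene LOC100139419 is also there, and such a probe may read a near-identical gene.

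Several of the 25 belong to tissue structure or secretion. COL18A1, a basement membrane collagen, read 6.06, 5.96 and 6.35, DCN (decorin, which binds collagen fibrils) 5.90, 5.79 and 5.91, and MGP (matrix Gla protein, an inhibitor of calcification) 6.15, 6.01 and 5.83. TIMP2, an inhibitor of matrix metalloproteinases, had a mean of 6.10 ± 0.12 (SD, n = 3). CLU, which encodes the secreted chaperone clusterin, had 6.16 ± 0.19. IGF2 had 6.02 ± 0.10, NBL1, a secreted antagonist of bone morphogenetic proteins, 6.09 ± 0.11, and TXNIP, a thioredoxin-binding protein induced by glucose, 6.22 ± 0.21. PGM5, a phosphoglucomutase relative of muscle adhesion sites, was less even at 6.02, 5.67 and 6.48. Antigen presentation was represented by B2M, the light chain of class I molecules, and by BOLA, a class I heavy chain at 6.48, 5.39 and 6.74 that was lower in cow 2. The purine enzyme PNP closed the set with 5.86 ± 0.20. Of the 25 genes, 24 had further probes, and 3 of the probes used held AATAAA, against 13.3% over all genes.

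Stroma and matrix lists stood high. All 17 measured stromal fibroblast genes were well above background on 3 arrays, with a median percentile of 90.2, and all 28 extracellular matrix genes likewise, with 88.1. When the median probe stood for a gene, these medians were 88.2 and 71.7. COL18A1, the brightest matrix gene, then had a percentile of 77.1 in place of 99.8. DCN, COL6A1, VIM (vimentin) and COL1A2 led the fibroblast list. Cows read 5.49, 5.47 and 5.47 for VIM. The range over cows passed 1 log2 unit in 4 of the 17 fibroblast genes (23.5%, against 14.6% of all genes well above background on at least 1 array). It was widest in MFAP5, a protein of elastic microfibrils, at 2.08, 4.45 and −0.57. Its other 2 probes put the cows in the same order, cow 2 highest and cow 3 lowest. THBS1, a matrix protein that binds growth factors, had the widest range of the matrix list, 1.40 log2 units, with cow 3 highest.

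Smooth muscle genes were also bright. The 15 genes for smooth muscle and pericytes, the contractile cells around small vessels, were all well above background, with a median percentile of 80.4. CALD1 (caldesmon) read 4.94, 4.55 and 5.21, and MYLK, ACTA2 and CNN1, all of the contractile apparatus, had percentiles of 97.3, 97.2 and 96.6. Whether myometrium was in the biopsies or vessel walls gave the signal was not tested. Endothelial genes had a median percentile of 59.3, with EMCN, CLDN5, ROBO4 and ENG on top. Of the 17 measured, PROX1, a lymphatic factor, and VWF, a defining endothelial marker, were well above background on no array.

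The epithelium was present by its defining markers. All 18 measured epithelial genes were well above background on 3 arrays, with a median percentile of 66.3. EPCAM, an epithelial adhesion molecule, read 4.87, 4.77 and 4.68, and KRT8, a simple-epithelium keratin, 4.47, 4.35 and 4.01. ST14, a membrane protease, and ELF3, an epithelial transcription factor, completed the top 4. The claudin CLDN4 varied most, at −1.49, −3.22 and −2.89. Of the 17 ciliated cell genes, 16 were well above background on 3 arrays and DNAH5 on none, with a median percentile of 52.3 and TPPP3, CAPS, DYNLRB2 and MORN2 leading. The squamous epithelium list, which would mark vaginal or ectocervical tissue, had a median percentile of 23.0. Of its 8 measured genes 4 were well above background on 3 arrays (KRT14, KRT10, IVL and LORICRIN) and 2 on 1 or 2 arrays. Its basal factor TP63 and DSC3 were so on no array, and KRT14, its brightest member, read −2.32, −2.82 and −3.53.

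**Figure D2:**
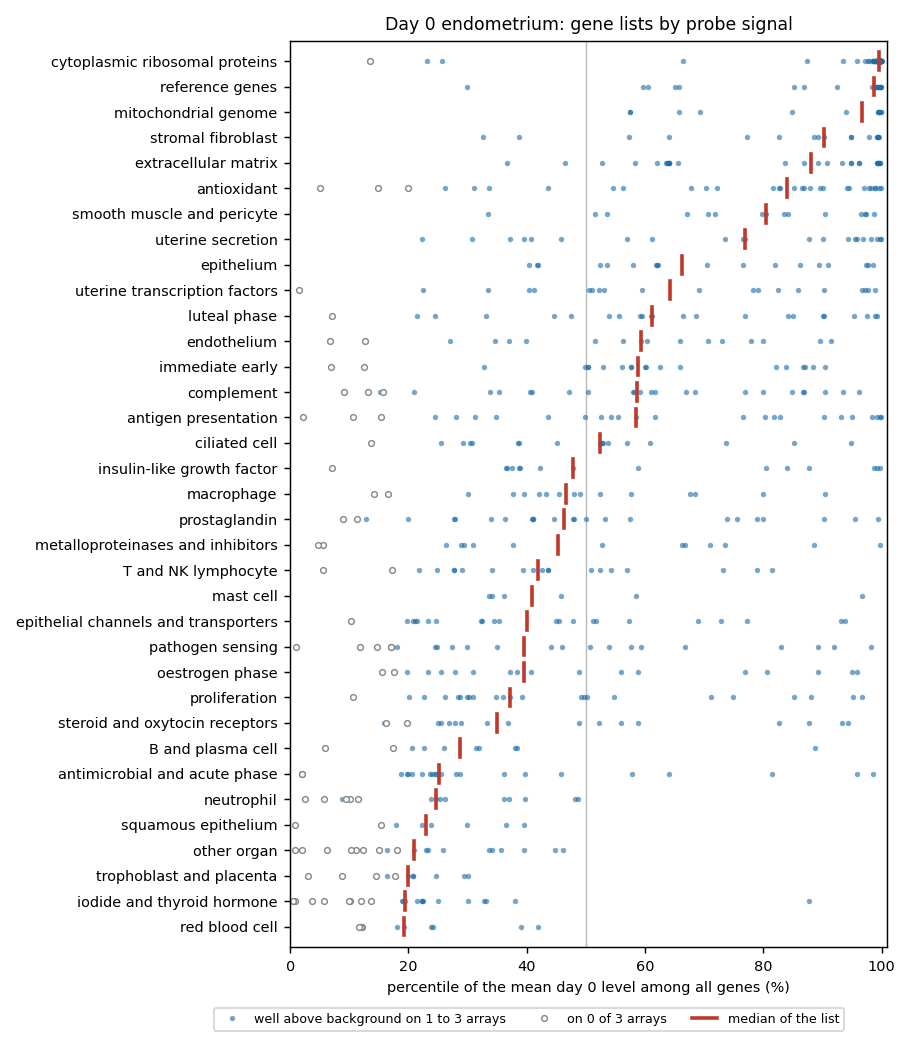
Percentile of the mean day 0 level among all genes for each member of 35 gene lists, 1 row a list, with open circles for members well above background on 0 of 3 arrays and a bar at the list's median. Medians run from 99.6 for ribosomal proteins to 19.2 for red blood cell genes. The order of the lowest lists is not firm, since their levels lie near background.

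Immune cell genes sat around or below the middle. The macrophage list had a median percentile of 46.7, or 53.8 under the sample names of the scanner file links. Its complement genes C1QA, C1QB and C1QC led, with 3.02, 2.72 and 2.87 for C1QA, followed by the growth factor receptor CSF1R. ITGAM and CD209 were well above background on no array. T and NK lymphocyte genes had a median percentile of 41.9, with the T cell receptor chains CD3D (1.87, 1.99 and 1.69) and CD247, the granule protease GZMB and CD8A on top. IL7R and NCR1 were not well above background. Mast cell genes had a median percentile of 41.0 over 6 members. GATA2, the brightest at 4.27, 4.02 and 4.07, is also a uterine transcription factor, and the protease CPA3 read −4.23, −4.63 and −2.56.

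B and plasma cell genes had a median percentile of 28.8. Of the 8 well above background on at least 1 array, 5 were lowest in cow 2 and 4 had a range over 1 log2 unit. Among all genes well above background on at least 1 array, 31.1% were lowest in cow 2 and 14.6% had such a range. JCHAIN, which joins polymeric immunoglobulin, read 3.86 in cow 1, 0.15 in cow 2 and 3.87 in cow 3. Its other probe read 1.78, −1.47 and 2.00. Cow 2 was thus lowest by more than 3 log2 units on both probes. BLK, a kinase of B cells, was lowest in cow 1 instead, at −3.98, −2.97 and −2.55. After JCHAIN, MZB1, BLK and CD79A had percentiles of 38.4, 37.9 and 31.9, and CD79B and CR2 were well above background on none of the arrays. IGHG1, the heavy chain constant region of IgG1, read −0.05, −5.39 and −1.91, again lowest in cow 2.

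Markers of blood and of other tissues were at the bottom of the order. Neutrophil genes had a median percentile of 24.7, with FCGR3A, S100A12, S100A8 and CATHL5 on top and PGLYRP1, CXCR2, CATHL1, CATHL4 and CD177 well above background on no array. S100A9 read −6.59, −4.32 and −5.66 and was not well above background in cow 1. The red blood cell list had the lowest median, 19.2, but its place among the lowest lists is not firm. Its median level of −6.46 lay near the lowest levels called well above background. HBA, the alpha chain of haemoglobin, read −2.47, −2.07 and −3.00, HBB was well above background in 1 cow, and ALAS2 and HBM in none. The trophoblast and placenta list had a median percentile of 19.9. Of its 11 measured genes 3 were well above background on 3 arrays and 4 on 1 or 2. PRP1, its brightest, was among the first, at −4.59, −4.72 and −4.50. PAG1, CDX2, TKDP1 and PAG4 were well above background on no array. ELF5, also a factor of glandular epithelium, read −2.88, −6.47 and −4.78. Of 19 genes of other organs, 8 were well above background on no array (PRM1, TNNT2, CSN1S1, AHSG, UMOD, MYL2, GCG and GH1), with a median percentile of 20.9. The brightest 4 there, APOA2, AMH, GFAP and MYH7, reached percentiles of 46.2 to 35.7, which overlaps the medians of the immune cell lists.

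The steroid and oxytocin receptor genes described here spanned percentiles from 16.3 (PRLR) to 94.4 (PGRMC1). PGRMC1, a membrane-associated progesterone-binding protein, read 3.52, 3.56 and 3.40, RXRB, the retinoid X receptor beta, 3.27, 3.27 and 3.36, THRA, a thyroid hormone receptor, 2.53, 2.40 and 2.64, and PGRMC2 1.87, 2.02 and 2.06. In the middle were GHR, the growth hormone receptor (0.07, −0.87 and −0.04), ESR2, the oestrogen receptor beta (−0.27, −0.57 and −0.97), the retinoic acid receptor RARG (−0.83 in cow 1 to −1.31 in cow 3) and PGR, the nuclear progesterone receptor (−1.58, −1.25 and −1.71). Among these 4, the cows' ranges overlap for neighbours, so their order is not firm.

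The remaining receptors were dim. NR3C2, which binds mineralocorticoids, had a mean of −3.35 ± 0.27 (SD, n = 3), the glucocorticoid receptor NR3C1 −3.96 ± 0.27 and RARA −4.80 ± 0.31. OXTR, the oxytocin receptor, read −4.71, −4.11 and −6.09, with a second probe well above background on no array. Its mean level had a percentile of 27.8, or 54.1 under the sample names of the file links. ESR1, the oestrogen receptor alpha, read −5.16, −4.86 and −6.11, and 4 of its 4 probes were highest in cow 2 and lowest in cow 3. RXRA and THRB had means of −5.15 and −5.48. VDR, for vitamin D, and PRLR, for prolactin, were well above background on no array. PRLR had a percentile of 29.3 under the file links, and GHR 23.9 in place of 58.8 when the median probe stood for a gene. The same rule gave PGR 64.4 in place of 48.9, THRA 71.0 in place of 87.8 and RXRB 79.4 in place of 93.4. OXTR had the widest range of these receptors, 1.98 log2 units.

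**Figure D3:**
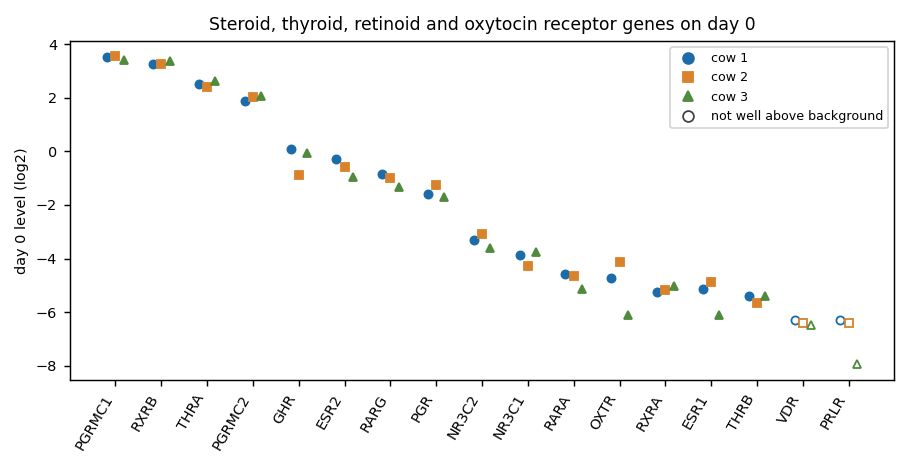
Day 0 level (log2, vertical axis) of 17 receptor genes in each of 3 cows, ordered by mean level, with open symbols where the probe was not well above background. PGRMC1 is highest near 3.5, and OXTR and ESR1 are lowest in cow 3.

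Genes known to be high in the luteal phase, when progesterone rules, had a median percentile of 61.1. Genes of the oestrogen phase had 39.5, or 54.5 under the sample names of the file links. Without any 1 cow the luteal median was 64.7 to 67.1 and the oestrogen phase median 38.6 to 42.4. When the median probe stood for a gene they were 70.6 and 47.7. GRP, a peptide made by uterine glands, read 5.42, 5.33 and 5.06, and TGM2, PENK and ANPEP followed. IGFBP1, a progesterone target of the epithelium, was well above background on no array. LPL, lipoprotein lipase, varied most, at 1.36, 0.19 and −2.25. Among the oestrogen phase genes LTF, the iron-binding antimicrobial lactoferrin, read 4.36, 5.47 and 1.67, and its 5 probes all ran from cow 2 down to cow 3. CTSS, TFF3 and EDN3 came next, and MUC4 and GREB1 were not well above background. MMP7, a protease of glandular epithelium, read −3.57, −2.69 and −6.99 and was not well above background in cow 3. The 2 lists share no cycle label to be set against, since the labels give none.

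Secretion, prostaglandin and growth factor genes each held a few very bright members. The uterine secretion list had a median percentile of 76.9, or 92.0 under the sample names of the file links. It was led by CLU, TIMP2, GRP and the protease inhibitor CST3. The prostaglandin list had 46.2. AKR1B1, an aldo-keto reductase that can make prostaglandin F2 alpha, led with 5.58, 5.40 and 5.43, ahead of PTGES3, HPGD (which inactivates prostaglandins) and the phospholipase PLA2G4A. The receptors PTGIR and PTGFR were well above background on none of the arrays, and AKR1C3 was at −1.14, −0.48 and −3.29. The insulin-like growth factor list had 47.8, or 56.6 under the sample names of the file links. IGF2 and the binding proteins IGFBP6, IGFBP7 and IGFBP3 led it, and IGFBP2 varied most, by 1.74 log2 units.

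Because the treatment carries iodine, genes of iodide handling and of oxidant defence were listed. The antioxidant list had a median percentile of 84.0, with 27 of 30 members well above background on 3 arrays. FTH1, FTL, SOD1 (superoxide dismutase) and the selenium carrier SELENOP led, GSTA1 varied most (−4.84, −5.26 and −3.06), and GPX3, SOD3 and MT1E were well above background on no array. The iodide and thyroid hormone list had 19.5, with 8 of 21 members well above background on no array. These include the iodide transporters SLC5A5, SLC26A4 and SLC5A8, the oxidase genes DUOX1, DUOX2 and DUOXA2 and the deiodinases DIO1 and DIO3. THRA was the bright exception, followed by DIO2 at −3.33, −2.63 and −3.50, ANO1 and TG. TTR, a thyroid hormone carrier, read −3.86, −5.19 and −4.69.

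The 3 cows were alike for most genes. Among the 11989 genes well above background on all 3 arrays the median SD over cows was 0.23 log2 units, and it fell from 0.34 in the dimmest 2998 genes to 0.16 in the brightest 2997. The range passed 1 log2 unit in 1611 genes (13.4%) and 3 in 60. Cows 1 and 2 differed by a median of 0.18, and cow 3 differed from them by 0.31 each. Each cow gave 1 day 0 biopsy, on a slide of its own, so cow, biopsy and slide cannot be told apart in any day 0 difference. Without cow 3 the median SD was 0.13. Reference genes had a median SD of 0.11, with YWHAZ the widest at 0.63 between cows.

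The 20 genes with the widest range over cows were chosen by that range, so their day 0 values are a description. Dim values were set to the array's lowest level called well above background, which makes 7 of the 20 ranges lower bounds. By the levels before that step, cow 3 was at an end of the range in 18 of the 20, lowest in 13. In BOLA-DQA5 and IBSP that lowest place is not firm, since cow 1 was not well above background either. The last gene inside had a range of 4.51 and the first outside 4.505. With 1 of the cows left out, 14 (without cow 1), 13 (without cow 2) and 9 (without cow 3) of them stayed among the 20 widest.

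The widest range of all genes was that of JSP.1, a class I major histocompatibility gene of cattle. It read 4.32 in cow 1, 5.52 in cow 2 and −5.62 in cow 3. The range was 11.1 log2 units. BOLA-DQA5, a class II alpha chain, read −8.13, −0.13 and −8.41, and was well above background in cow 2 alone, on both of its probes. These genes are highly variable between animals and have near-identical relatives, so a probe can read 1 allele or relative and miss another. A set of 3 JSP.1 probes over 1 stretch are shown whole because they differ by few bases and give different levels. Capitals in the first 2 mark the 3 bases at which they differ over the 58 they share, and capitals in probe 3 the 2 bases, of 47 shared, that differ from probe 1.
JSP.1 probe 1: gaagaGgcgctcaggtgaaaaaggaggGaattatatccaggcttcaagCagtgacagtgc
JSP.1 probe 2: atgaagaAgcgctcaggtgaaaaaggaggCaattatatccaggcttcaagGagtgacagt
JSP.1 probe 3: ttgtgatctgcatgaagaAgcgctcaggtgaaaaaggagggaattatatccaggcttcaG
Probe 1 read 0.64, 1.29 and −7.21 in cows 1, 2 and 3, probe 2 −4.74, 0.64 and −8.72, and probe 3 −2.47, 1.86 and −8.61. All 3 were low in cow 3, and cow 1 ranged from 0.64 down to −4.74 between them. The files place probe 2 at chr23:28599390-28600011 of Btau_3.1, minus strand, a span longer than the probe, and give no position for probes 1 and 3.

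The brightest JSP.1 probe differs by 9 of 58 bases from a probe of BOLA, its class I relative. Bases 31 to 60 and 29 to 58 are shown, with the 4 differences among them in capitals.
JSP.1 brightest probe: TatatAcactgaAtaatgatAtcttatttc
BOLA probe: CatatGcactgaGtaatgatGtcttatttc
The JSP.1 probe (chr23:28598893-28598952, minus strand) read 4.32, 5.52 and −5.62, and the BOLA probe (chr23:28655800-28655859, minus strand) 6.32, 5.24 and 6.51. Cow 3 was the lowest on the first and the highest on the second. The last JSP.1 probe read −2.09, −8.75 and −2.08, low in cow 2 only.

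**Figure D4:**
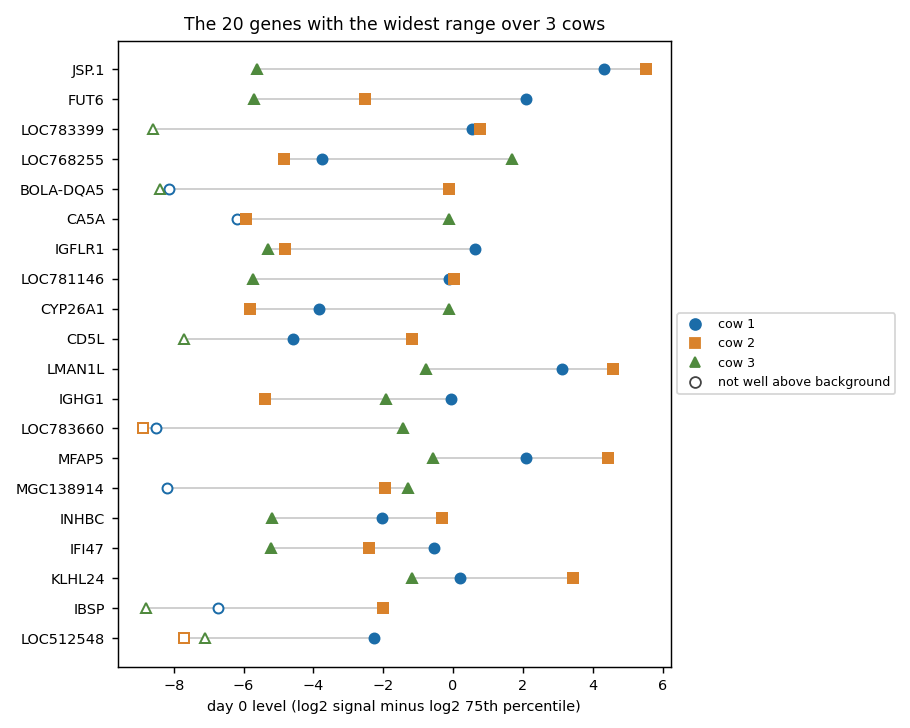
Day 0 level (log2, horizontal axis) of the 20 genes with the widest range over 3 cows, 1 symbol a cow, open where not well above background. JSP.1 is widest, at −5.62 in cow 3 against 5.52 in cow 2. Cow 3 sits at an end in 18 of 20 genes by the plotted levels, open symbols included.

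Other wide genes belong to varied functions. CYP26A1, which breaks down retinoic acid, read −3.85, −5.82 and −0.11, and its other 2 probes kept that order. FUT6, a fucosyltransferase, read 2.08, −2.52 and −5.70. LMAN1L, a lectin of the secretory pathway, read 3.11, 4.58 and −0.76. IFI47, an interferon-inducible GTPase, read −0.56, −2.41 and −5.21, whereas CD5L, secreted by macrophages, read −4.58, −1.16 and −7.71. Both were lowest in cow 3, where CD5L was not well above background. CA5A, a mitochondrial carbonic anhydrase, was high only in cow 3, at −0.12 against −6.20 and −5.94. LOC783660, listed by RefSeq under the older name PRG3, an eosinophil granule protein, was well above background only in cow 3. Bone sialoprotein IBSP was so in cow 2 alone, and LOC512548, named SLPI in the files, in cow 1 alone. INHBC, an inhibin chain, and KLHL24, a ubiquitin ligase adaptor, were highest in cow 2 and lowest in cow 3. The rest were LOC783399, LOC768255, LOC781146 and MGC138914.

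IGFLR1, a receptor of the tumour necrosis factor receptor family, was high in cow 1 only, at 0.62, −4.81 and −5.30. Its single probe and 1 of the 2 for BOLA-DQA5 both hold AATAAA, in capitals here (bases 31 to 60).
IGFLR1 probe: gcctggcctagtattcAATAAAgtttctat
BOLA-DQA5 probe: tatggaagcAATAAAtctctttatgtggtc
They lie at chr18:45878845-45878904 and chr23:26243033-26243092 of Btau_3.1, both on the minus strand. With 1 probe, as for 12 of the 20, no second reading of the gene exists on the array.

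Whether these differences came back in other biopsies of the same cows was tested on the 9 arrays of days 2, 7 and 14, with limma's moderated F-test for cow, day as a factor and Benjamini-Hochberg adjustment. It called 449 of 32871 probes (1.37%) at an adjusted p under 0.05, 1061 with array weights, and only 5 without day 2, 17 without day 7 and 0 without day 14. Of the 20 genes, 17 were tested and 8 were called: JSP.1, LOC768255, BOLA-DQA5, CA5A, IGFLR1, IGHG1, IFI47 and KLHL24. With no filter on dim probes it called 200 of 43622 probes (0.458%), 7 of them among the 20 genes, KLHL24 being the one lost (limma adjusted p 0.0596). A probe bright in 1 cow passes the filter through that cow, and cow and slide cannot be told apart. The sample names used here were preferred earlier partly because some probes set the cows apart. The count is therefore no independent support for them, and the return of cow differences was not tested independently of that choice. Under the sample names of the scanner file links no probe was called, and 691 had an unadjusted p under 0.05.

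JSP.1 kept cow means of 4.48, 5.52 and −5.34 in the later biopsies, with a limma adjusted p of 0.00579. BOLA-DQA5 had −8.28, 0.31 and −7.96 (limma adjusted p 0.00248, and 0.00328 with no filter). Its means in cows 1 and 3 lay below the day 0 floors, so the filtered p is not read as support. IGFLR1 had 1.25, −4.49 and −4.33 (limma adjusted p 0.000264). All 3 set apart the cow that was apart on day 0. The sample names were preferred partly because some probes set the cows apart, and cow and slide cannot be told apart. The p-values of JSP.1 and IGFLR1 are therefore no independent support for a return of cow differences either. CYP26A1 did not, with −6.68, −6.32 and −7.82 later, when it was too dim to enter the test. MFAP5 had 4.14, 5.26 and 4.42 (limma adjusted p 0.558), and cow 3 was no longer low. The cow highest on day 0 was also highest later in 15 of the 20 genes, against 44.8% of the 12923 genes well above background on at least 1 day 0 array. For the lowest cow it was 11 of 20 against 45.5%. These 20 were picked for their wide range on day 0, so higher shares than over all genes can follow from that choice. The counts also rest on the sample names used here and are not read as support for a return of cow differences. Which cow is lowest is not firm where more than 1 cow was not well above background on day 0, as in BOLA-DQA5 and LOC512548.

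Whole gene lists leaned to 1 cow on day 0. The ciliated cell genes were highest in cow 1 for 15 of 16 members, among them TPPP3 at 3.95, 3.70 and 3.16 and DNAH9, the widest, at −3.53, −4.63 and −5.43. Over all genes cow 1 was highest in 29.3% and cow 2 in 30.7%, and cow 3 in the rest, and the lowest level was in cow 1 for 29.6%, in cow 2 for 31.1% and in cow 3 for 39.3%. Proliferation genes were highest in cow 2 for 19 of 22. The list had a median percentile of 37.1, and CDC20, which drives exit from mitosis, read −4.95, −3.09 and −7.71. In cow 3 CDC20 was not well above background. RRM1, TYMS, PCNA and CCNB1 were its brightest, and CDC6 was well above background on no array. Oestrogen phase genes were highest in cow 2 for 12 of 16 and lowest in cow 3 for 13.

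Cow 3 led other lists. Smooth muscle genes were highest there for 12 of 15, endothelial genes for 12 of 15 and immediate early genes, which respond within minutes to stimuli and handling, for 13 of 18. KLF6 read 2.40, 2.91 and 3.28, JUN 2.12, 2.63 and 3.00 and ATF3 −1.94, −1.73 and −0.46. DUSP1 and FOSL2 were the other bright members, EGR3 and FOSL1 were well above background on no array, and the list's median percentile was 58.8. Ribosomal protein genes were highest in cow 3 for 61 of 80 and lowest in cow 2 for 72, but under quantile normalisation these counts were 45 each. Oestrogen phase genes lowest in cow 3 were 11 of 16 under quantile normalisation and 9 after normexp. Members of a list are not independent of each other.

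**Figure D5:**
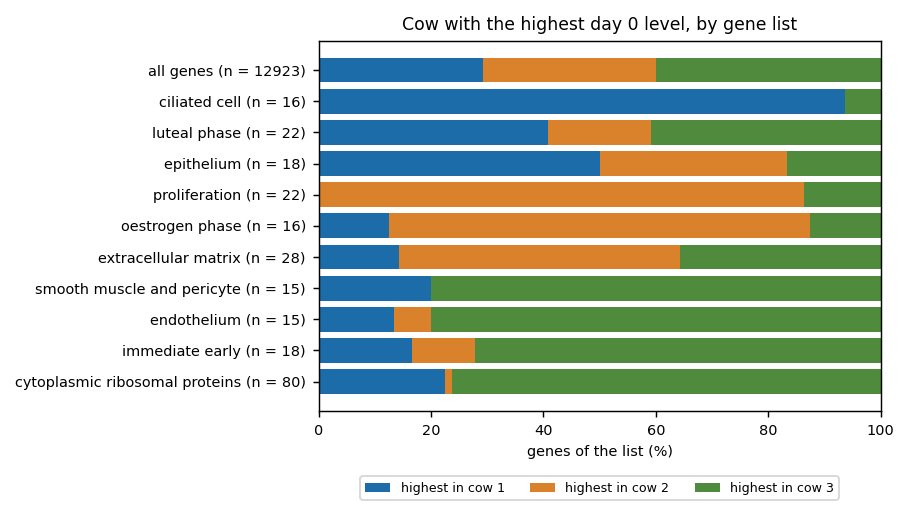
Share of genes (%, horizontal axis) whose day 0 level was highest in cow 1, 2 or 3, for all genes and 10 lists, with the number of genes well above background on at least 1 array. Ciliated cell genes lean to cow 1 (15 of 16), proliferation genes to cow 2 (19 of 22) and smooth muscle genes to cow 3 (12 of 15).

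Some of these leanings were there in the later biopsies and some were not. By the mean of days 2, 7 and 14, ciliated cell genes were highest in cow 1 for 13 of 16, proliferation genes in cow 2 for 21 of 22 and smooth muscle genes in cow 3 for 13 of 15. Endothelial genes were highest in cow 3 for only 2 of 15 and immediate early genes for 1 of 18. Oestrogen phase genes were highest in cow 2 for 6 of 16 (37.5%) and lowest in cow 3 for 8. Ribosomal protein genes were highest in cow 1 for 46 of 80 and in cow 3 for 34, and lowest in cow 2 for 70. Over all genes cows 1, 2 and 3 were highest in 30.9%, 37.9% and 31.2% by the same means. They were lowest in 29.9%, 28.1% and 42.0%. Each cow's arrays share a slide throughout, and no test was made of these counts.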

How the data were processed

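Endometrial RNA of 3 cows on 4 days was measured on 12 one-colour arrays, 4 on each of 3 slides. The deposited scanner files hold intensity for every spot. Per the file headers they come from Feature Extraction 11.5.1.1, whereas the submitters' processing notes name 10.5.1.1. The authors' deposited value table is on a log2 scale. No source used here says how it was made. Its columns equalled the scaled levels used here, centred on each probe's median over arrays. Only 2 of 12 columns matched the linked scanner file, so samples were named by the table. That choice also rested partly on probes that set the cows apart.

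From these files, spots of a probe were averaged, 1417 control spots and 31 of 43653 probes with outlier flags were left out, and levels were scaled as described. Probes were named through RefSeq (ARS-UCD2.0, names only) or the files, and 11220 probes had no RefSeq gene name. Sequences and positions are those of the scanner files (Btau_3.1). The number of arrays limits precision. The cow test (limma 3.58.1 in R 4.3.3) used probes well above background on at least 3 of 9 arrays and was tested on simulated data. The day 0 replicates are 1 biopsy from each cow.

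Named genes are the 25 brightest outside ribosomal and mitochondrial genes, the 20 widest over cows, and per list the 4 brightest, those well above background on no array and the widest, and all receptors; 3 of these genes are not reported here. ND2, the further probes and the sequences shown were chosen after their values were seen. The members and all 35 lists were chosen with earlier results of these data known. Alternatives tried were the normalisation, the probe rule, the sample names, the filters, array weights and leaving out each cow or day.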

Additional observations from a re-analysis of the deposited data

How the results depend on the processing

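Levels kept their order under most alternatives, but less so with the median probe or the file links. Of the 25 brightest genes, 22 to 25 stayed under the other normalisations, sample names and without any 1 cow (24 to 25), and 11 when the median probe stood for a gene. Of 35 lists, 16 had a median above the 50th percentile (16 to 20 over all alternatives). List medians moved over 5 points in 14 lists with the median probe and in 12 under the file links. The largest moves were 16.4 and 19.2 points. The number of genes well above background lay between 11760 and 12418. The median SD over cows ranged from 0.129 (without cow 3) to 0.2205 (without cow 2) when 1 cow was left out, 0.3128 under the file links and 0.183 with normexp. Of the 20 widest genes, 13 stayed with normexp, 12 among genes well above background on all 3 arrays, 9 to 14 without 1 cow, and 1 under the file links. The probe spread was 2.49 to 3.12, in alternatives added after the data were seen. The cow test called 200 probes with no filter, 1061 with array weights, 0 under the file links (limma; 691 with an unadjusted p under 0.05) and 0 to 17 without 1 day: 5 without day 2, 17 without day 7 and 0 without day 14 (3099 unadjusted). No paired analysis was possible because no days were compared, each cow gave 1 day 0 array, and the cow was the factor tested in the later biopsies. Background limits dim genes: below about −6.3 to −6.8 a level has no order.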

Other observations

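Genes of the uterus and of defence in other lists were also on the arrays of day 0. Transcription factors of the uterus had a median percentile of 64.3 over 20 measured genes. MSX1, a homeobox factor, read 5.20, 5.16 and 4.76 in cows 1, 2 and 3, and NR2F1, EMX2 and GATA2 followed. HOXD8 varied most (−4.57, −4.36 and −2.87), and the gonadal factor LHX9 was well above background on no array. Epithelial channels and transporters had a median percentile of 40.1, led by the sodium pump subunit ATP1B1 and the water channels AQP1 (3.33, 2.46 and 4.01) and AQP4. The anion exchanger SLC26A3 read −4.28, −8.28 and −6.08 and was not well above background in cow 2. KCNQ1 was well above background on none of the arrays.

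Complement genes had a median percentile of 58.7 over 26 members. C1S (3.56, 4.06 and 4.15), C4A, C1QA and SERPING1 led, and MASP2, C6 and C9 were well above background on none. C5 read −1.82, −1.64 and −4.66, lowest in cow 3. Antigen presentation genes had 58.6, with BOLA, B2M, the chaperone CALR and BOLA-NC1 on top and CD1A, BOLA-DYB and BOLA-DYA well above background on none. Pathogen sensing genes had 39.6. TLR2, which senses bacterial lipoproteins, read 4.54, 4.49 and 4.86, ahead of STING1, MYD88 and LY96, while TLR9, TLR7, TLR1, TLR8 and CGAS were well above background on none. IFIH1, a sensor of viral RNA, read −4.07, −0.89 and −0.72, lowest in cow 1. Antimicrobial and acute phase genes had 25.1 (44.3 under the sample names of the file links), with SAA3 (4.96, 5.24 and 4.24), LTF, LYZ and ITIH4 on top and CAMP and DEFB10 well above background on none. Metalloproteinases and their inhibitors had 45.2, or 54.7 under the sample names of the file links. They were led by TIMP2, MMP2, TIMP1 and TIMP3, with MMP13 and MMP3 well above background on none. Reference genes had 98.7, led by EEF1A1, EEF2, B2M and PPIA.

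Of the probes without a gene name, 6248 of 11220 were well above background on all 3 arrays, and 7 were among the 100 brightest probes.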
